A study of Mus musculus with 27 samples.

Results

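The mouse mitochondrial genome transcripts were described from the 37 genes whose symbol starts with mt- in a table of 54532 genes: 13 protein-coding genes, 2 rRNA genes and 22 tRNA genes. The table holds read counts of 27 RNA sequencing libraries of dorsal skin of C3H mice, in 3 groups of 9 libraries. TDM skin received TDM10842, labelled a thyroid hormone receptor agonist, Vehicle skin received its solvent, and Blank skin received nothing. The solvent, with or without the compound, was applied 2 times, at 0 and 24 h, in 60 µL each. A library held 15996657 to 17357395 counted reads in TDM skin, 15412332 to 17001952 in Vehicle skin and 15705220 to 17599066 in Blank skin. The 37 genes held 291916 to 626304 of these in TDM libraries, 379173 to 626081 in Vehicle libraries and 380481 to 603743 in Blank libraries. Separate animals are not named in the labels, and the p-values therefore reflect only how far these libraries differed from each other, including any technical variation. In bulk tissue, fewer cells of a type and less RNA per cell cannot be told apart.

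The circular mitochondrial genome is transcribed from both strands into long precursors, from which tRNAs are cut out and the mRNAs and rRNAs between them are released. Its mRNAs encode core subunits of respiratory chain complexes I, III and IV and of the ATP synthase, complex V, and its rRNAs build the ribosome that translates them inside the organelle. Thyroid hormone is known to stimulate mitochondrial biogenesis in rodent liver and muscle, and mouse dorsal skin carries a thin sheet of skeletal muscle, a tissue rich in mitochondria.

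Of the 37 genes, 28 lie on the plus strand and 9 on the minus strand of chromosome MT (GRCm38 coordinates throughout). The genes are packed with few free bases, and some overlap, most of all mt-Atp8 and mt-Atp6 by 43 bases, mt-Nd5 and the opposite-strand mt-Nd6 by 14, and mt-Nd4l and mt-Nd4 by 7. Several other neighbours overlap by fewer bases, among them mt-Nd1 and mt-Nd2 with the tRNA genes that follow them. Whether counting used strand is not stated in the sources used here, so reads of the overlapping genes, and reads of mt-Nd6 and of RNA antisense to it, cannot be told apart. The ends of the 13 coding sequences show how tightly mRNAs and tRNAs abut. Of them, 8 end in TAA and 2, mt-Nd1 and mt-Nd2, in TAG, while mt-Co3, mt-Nd4 and mt-Cytb end in a single T after their last whole codon, which the poly(A) tail is known to complete to a stop codon. One example of each, as the last 15 bases in GENCODE M21 with the stop or partial stop in capitals, is
mt-Co1: gtaaaagtaaaaTAA
mt-Nd1: ccaccatacataTAG
mt-Co3: attgatgaggatctT

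Several of the genes have near-identical copies in the nuclear genome, and these are shown because they bear on how reads of mitochondrial mRNAs were counted. On the minus strand of chromosome 1, 7 unprocessed pseudogenes lie within chr1:24611535-24616197, a stretch of 4663 bases that follows the mitochondrial order. Over the length of the copy, mt-Co2 matched Gm28661 at 681 of 681 bases, mt-Atp6 matched Gm10925 at 678 of 678, mt-Co3 matched Gm28437 at 783 of 783, mt-Nd4l matched Gm10222 at 294 of 294, and the first 876 bases of mt-Nd4 matched Gm28439 throughout. The copy of mt-Nd3, Gm28438, differed at 1 of 345 positions, T3C, with positions counted from 1 at the gene's 5′ end and the mitochondrial base first. Gm29216, which covers positions 1054 to 1545 of mt-Co1, matched it at 486 of 492 bases. The first 60 bases of mt-Nd3 (chromosome MT, 9459 to 9806) and of Gm28438 (chr1:24612775-24613119, minus strand), with the differing base in capitals, and positions 71 to 130 of mt-Co2 (chromosome MT, 7013 to 7696) and Gm28661 (chr1:24614885-24615565, minus strand), with no difference, are
mt-Nd3: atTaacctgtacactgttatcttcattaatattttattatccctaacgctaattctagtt
Gm28438: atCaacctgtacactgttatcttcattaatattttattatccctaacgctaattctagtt
mt-Co2: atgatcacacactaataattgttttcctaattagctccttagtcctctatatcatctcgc
Gm28661: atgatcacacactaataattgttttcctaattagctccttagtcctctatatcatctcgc

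Of the 22 tRNA genes, those for proline and cysteine held the most reads, and those for phenylalanine and arginine held none. The tRNAs of the proline, cysteine, tyrosine and phenylalanine genes are shown, the first 3 from the minus strand and the last from the plus strand, since the tRNA results turn on them
mt-Tp: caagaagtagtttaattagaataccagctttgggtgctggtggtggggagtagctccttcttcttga
mt-Tc: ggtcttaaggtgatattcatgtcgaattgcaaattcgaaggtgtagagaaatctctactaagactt
mt-Ty: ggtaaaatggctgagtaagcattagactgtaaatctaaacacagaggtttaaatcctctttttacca
mt-Tf: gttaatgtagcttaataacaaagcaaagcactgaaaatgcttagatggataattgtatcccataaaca

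Levels were compared between genes per length, as FPKM, the authors' counts scaled by gene length and library size. mt-Co1, the catalytic core of cytochrome c oxidase, had the highest mean over the 27 libraries, 7531 FPKM, and held 41.3% of all mitochondrial reads. mt-Cytb, the cytochrome of complex III, followed at 4328 FPKM and mt-Nd1, a complex I subunit, at 3833 FPKM. This order of the first 3 held in 27 of 27 libraries. The complex I subunits mt-Nd2 and mt-Nd4 came next at 1815 and 1621 FPKM, with mt-Nd2 the higher in 26 of 27 libraries. mt-Nd6, the only protein-coding gene on the minus strand, averaged 1248 FPKM and mt-Nd5 1214 FPKM, and mt-Nd6 was the higher of this pair in 14 of 27 libraries, so their order did not hold between libraries. Both rRNAs, the most abundant RNAs of mitochondria in total RNA, stood below these mRNAs here, with means of 333 FPKM for mt-Rnr1 and 210.1 FPKM for mt-Rnr2. Whether the libraries were selected for poly(A) or depleted of rRNA is not stated in the sources used here beyond the kit's name.

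The remaining 6 protein-coding genes averaged 7.47 to 123 FPKM, and 5 of these are the genes whose sequence is shared almost throughout with the chromosome 1 copies. Each gene was cut into overlapping windows of 50 bases, and a window was called shared where another annotated transcript held it. mt-Co2, mt-Atp6, mt-Co3, mt-Nd3 and mt-Nd4l had 98.0% to 100% of their windows shared, and their means ran from 17.7 FPKM for mt-Nd3 to 123 FPKM for mt-Co2. The 7 genes with 0% to 62.2% of windows shared, mt-Nd1, mt-Nd2, mt-Co1, mt-Nd4, mt-Nd5, mt-Nd6 and mt-Cytb, had means from 1214 to 7531 FPKM, and the ranges of both sets do not meet. mt-Atp8, a small subunit of ATP synthase, stood apart from this pattern. It had no shared window and the lowest mean of the 13, 7.47 FPKM. The copies leave a gap of 233 bases without an annotated gene between Gm10925 and Gm28661, where the mitochondrial genome has 230 bases, holding the start of mt-Atp8, between mt-Co2 and mt-Atp6. How reads that match both places were counted is not stated in the sources used here, so the levels of these genes cannot be told apart from an effect of counting.

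**Figure D1:**
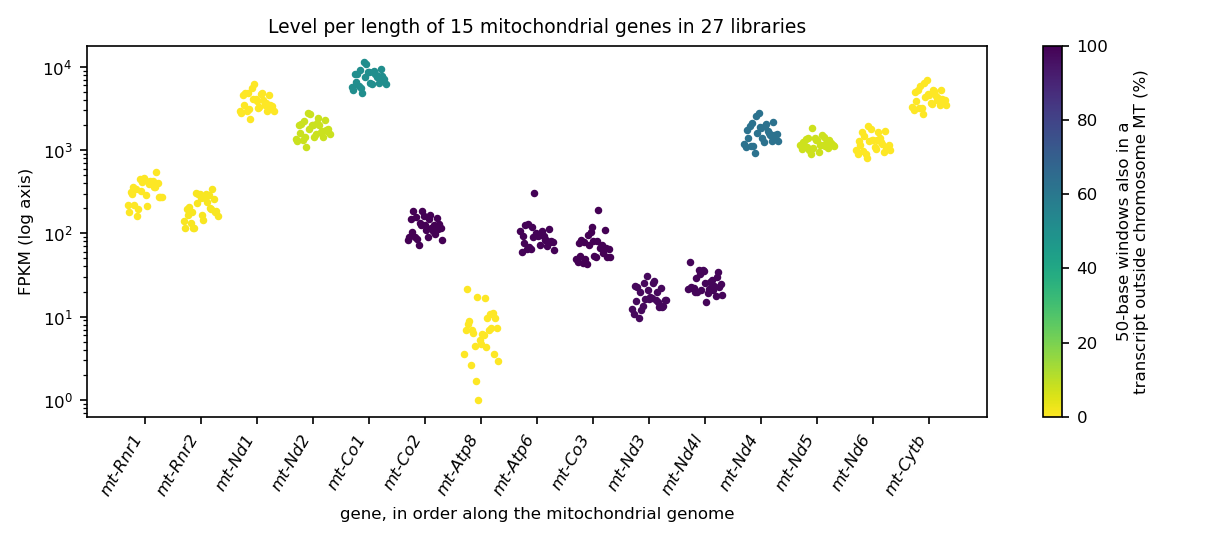
Level per length (FPKM, log axis) of the 13 protein-coding and 2 rRNA genes in the order of the genome, 1 point per library (27 a gene), coloured by the percent of 50-base windows that also occur in a transcript outside chromosome MT. The 5 genes at 98.0% or more average 17.7 to 123 FPKM, below the 7 genes with means from 1214 to 7531 FPKM, and mt-Atp8 is lowest with none shared.

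Of the 7 chromosome 1 copies, 4 held reads in numbers close to those of their mitochondrial genes. The median ratio of gene reads to copy reads over the 27 libraries was 1.15 for mt-Co2 and Gm28661, 1.01 for mt-Atp6 and Gm10925, 1.06 for mt-Co3 and Gm28437, and 0.961 for mt-Nd4l and Gm10222. mt-Nd3, the gene with the single differing base, had a median ratio of 0.397, with 95 reads in the median library against 240 in Gm28438. The other 2 copies, which cover only a stretch of their gene, held far fewer reads: over the 27 libraries mt-Nd4 had 1000386 reads against 8980 in Gm28439, and mt-Co1 had 5216811 against 15951 in Gm29216. In single libraries the split was uneven, in either direction. Blank replicate 7 held 649 reads in mt-Co3, against 1456 in Gm28437. Vehicle replicate 3 held 3071 reads in mt-Atp6, against a median of 1010 over the 27 libraries, and 1653 in Gm10925. Vehicle replicate 9 held 2519 reads in mt-Co3, against a median of 879, and 989 in Gm28437. TDM replicate 2 held 243 reads in mt-Nd4l, against a median of 116, and 90 in Gm10222.

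**Figure D2:**
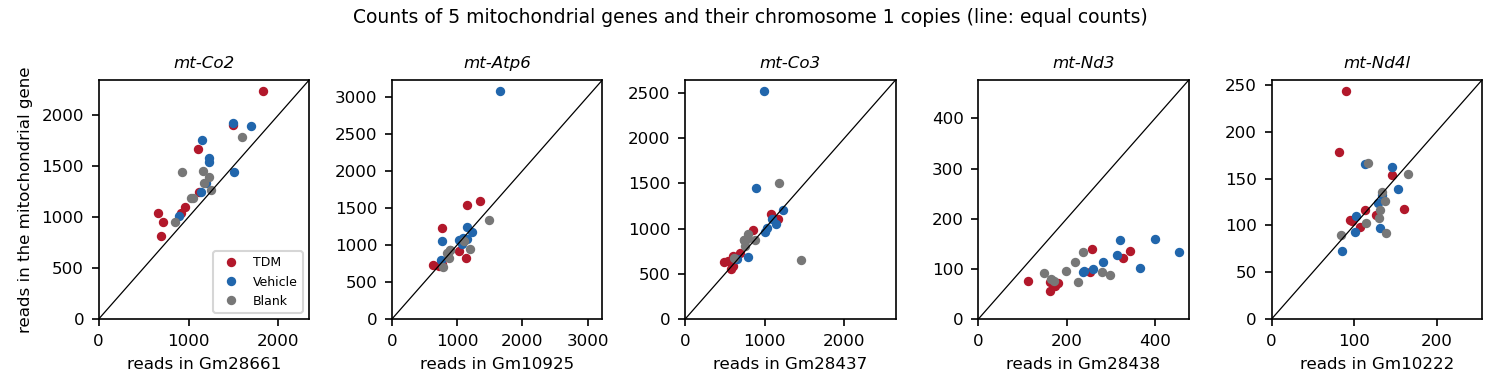
Read counts of 5 mitochondrial genes (vertical) against their chromosome 1 copies (horizontal), 1 point per library, 9 each of TDM, Vehicle and Blank; the line marks equal counts. Points lie near the line except for mt-Nd3, whose copy held more reads, and for single libraries such as Vehicle replicate 9 for mt-Co3, with 2519 reads against 989.

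The share of all reads that lay in the 37 genes was, from the lowest over the median to the highest library, 1.79%, 2.26% and 3.70% in TDM skin, 2.42%, 3.16% and 3.98% in Vehicle skin, and 2.28%, 2.64% and 3.43% in Blank skin. The mean was 2.59% ± 0.665 in TDM, 3.19% ± 0.531 in Vehicle and 2.71% ± 0.354 in Blank skin (SD, n = 9 each). The groups overlap. In TDM skin 5 of 9 libraries lay below the lowest Vehicle library and 5 below the lowest Blank library, while replicates 3, 5 and 7, at 3.20%, 3.35% and 3.70%, lay above the Vehicle median. Protein-coding genes made up nearly all of this share, with medians of 2.21% in TDM, 3.06% in Vehicle and 2.57% in Blank skin.

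The 2 rRNA genes took 0.0344%, 0.0453% and 0.0693% of reads in TDM libraries (lowest, median, highest), 0.0447%, 0.0808% and 0.0903% in Vehicle libraries, and 0.0506%, 0.0650% and 0.104% in Blank libraries. All 9 TDM libraries were below the Vehicle median and 8 of 9 were below the Blank median. Set against the mRNAs of the same library, there were 1.63, 2.004 and 2.23 rRNA reads per 100 protein-coding reads in TDM libraries, 1.89, 2.46 and 2.95 in Vehicle libraries, and 2.15, 2.596 and 3.23 in Blank libraries. On this ratio 9 of 9 TDM libraries lay below the Vehicle median and 8 of 9 below the lowest Blank library. TDM replicates 3, 5 and 7, whose total mitochondrial share was high, had ratios of 2.004, 2.11 and 1.77, below both other groups' medians. The 22 tRNA genes took 0.00355%, 0.00448% and 0.00698% of reads in TDM, 0.00372%, 0.00543% and 0.00672% in Vehicle, and 0.00395%, 0.00454% and 0.00826% in Blank libraries, ranges that overlap almost throughout.

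**Figure D3:**
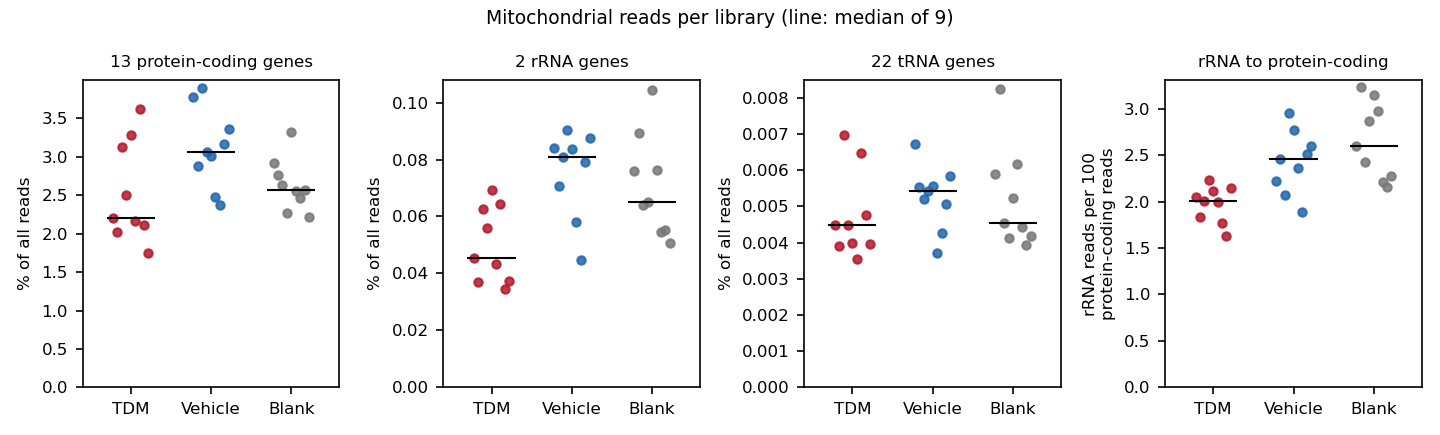
Share of all reads (%) in the 13 protein-coding, 2 rRNA and 22 tRNA genes, and rRNA reads per 100 protein-coding reads, 1 point per library and a line at the median of 9, for TDM, Vehicle and Blank. The rRNA share and the rRNA ratio of all 9 TDM libraries lie below the Vehicle medians of 0.0808% and 2.46, and in each of the 4 panels the TDM and Vehicle ranges overlap.

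TDM was compared with Vehicle to separate the compound from its solvent. The whole table was tested with edgeR's quasi-likelihood test, and genes are described as called where the p-value adjusted after Benjamini-Hochberg was under 0.05. Of the 37 genes, 24 passed the filter on low counts: all 13 protein-coding genes, both rRNAs and 9 tRNAs. None was called higher in TDM skin and 4 were called lower, mt-Rnr1, mt-Rnr2, mt-Co3 and mt-Ty, while 23.7% of the 17232 genes tested were called, 12% higher and 11.7% lower. The share of mitochondrial genes called, 16.7% and all lower, was thus below the 23.7% of all genes called in either direction and above the 11.7% called lower. Of the 24, 21 had a log2 fold change below 0, with a median of -0.37, against a median of 0.01 over all genes tested, of which 48.3% were below 0. No gene's 9 TDM libraries lay wholly apart from its 9 Vehicle libraries. DESeq2 called 8 and limma voom 17 of the 24, all lower in TDM skin, where these tools called 14.6% and 19.3% of all genes tested as lower. Only mt-Rnr1 and mt-Rnr2 were called without Vehicle replicate 9, and 7 to 10 genes were called, all lower, without any 1 of TDM replicates 3, 5 and 7, Vehicle replicates 6 and 7, and Blank replicates 1, 3 and 5; over the 27 fits with 1 library omitted, 8.66% to 15.3% of all genes tested were called lower.

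mt-Rnr2, the large ribosomal RNA, had 183.3, 228 and 336 CPM in TDM skin (lowest, median and highest library; CPM are counts scaled to library size with TMM factors), 235, 435 and 485 CPM in Vehicle skin, and 250.2, 327 and 546 CPM in Blank skin. It fell in TDM against Vehicle skin by 0.71 on the log2 scale (SE 0.16, adjusted p = 0.00487, edgeR) and in TDM against Blank skin by 0.56 (SE 0.16, adjusted p = 0.0192, edgeR), with 9 of 9 and 8 of 9 TDM libraries below the other group's median. mt-Rnr1, the small ribosomal RNA, had 156, 215 and 352 CPM in TDM skin, 204, 392 and 446 CPM in Vehicle skin, and 256, 346 and 535 CPM in Blank skin. It fell by 0.56 against Vehicle (SE 0.17, adjusted p = 0.0211, edgeR) and by 0.52 against Blank (SE 0.17, adjusted p = 0.0397, edgeR), with 9 of 9 and 8 of 9 TDM libraries below the other group's median. The mt-Rnr1 call against Blank was lost without a filter on low counts (adjusted p = 0.0539) and without any 1 of TDM replicates 1, 2, 6, 8 and 9 or Blank replicates 2, 5 and 6 (adjusted p up to 0.0807), while that of mt-Rnr2 held in all 13 other settings and all 27 fits with a library omitted. The highest TDM library for both rRNAs was replicate 5, and the lowest Vehicle library was replicate 7. How far library preparation retained rRNA is not stated, so a change in rRNA level and a change in its retention cannot be told apart. In the Vehicle against Blank comparison mt-Rnr1 had a log2 difference of 0.04 (SE 0.17, adjusted p = 0.899, edgeR) and mt-Rnr2 one of 0.15 (SE 0.16, adjusted p = 0.57, edgeR), neither of which passed the test. The authors' deposited table gives log2 fold changes of -0.72 for mt-Rnr2 and -0.57 for mt-Rnr1 in TDM versus Vehicle. Adjusted p-values of the authors' deposited table differ from edgeR's in side of 0.05 for 2 tested mitochondrial genes, mt-Ty in TDM versus Vehicle (0.0514) and mt-Tc in TDM versus Blank (0.0267).

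Among the complex IV subunits, mt-Co3 was called. It had 33.8, 39.6 and 67.6 CPM in TDM skin, 41.2, 64.7 and 148 CPM in Vehicle skin, and 40.2, 52.2 and 88.4 CPM in Blank skin. It fell in TDM against Vehicle skin by 0.68 on the log2 scale (SE 0.21, adjusted p = 0.0202, edgeR), with 8 of 9 TDM libraries below the Vehicle median, and this call rested on Vehicle replicate 9, the library with 2519 reads: without it the log2 fold change was -0.48 and the adjusted p 0.0548. Against Blank the log2 fold change was -0.21 (SE 0.21, adjusted p = 0.525, edgeR), and between Vehicle and Blank it was 0.46 (SE 0.21, adjusted p = 0.158, edgeR). mt-Co1 had 7471, 9154 and 14640 CPM in TDM, 9658, 13680 and 17470 CPM in Vehicle, and 9547, 11720 and 14620 CPM in Blank skin. mt-Co2, the subunit that takes electrons from cytochrome c, had 49.3, 63.5 and 129 CPM in TDM, 63.5, 91.5 and 127 CPM in Vehicle, and 56.65, 81.1 and 105 CPM in Blank skin. Both were called lower in TDM against Vehicle skin by limma voom, and mt-Co1 by DESeq2 as well, but not by edgeR. For both, the lowest TDM library was below every library of the other groups, and the highest TDM library was above every Blank library.

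The 7 complex I subunits gave no call with edgeR, while limma voom called 6 of them, all but mt-Nd4l, lower in TDM against Vehicle skin, and DESeq2 called 3, mt-Nd2, mt-Nd3 and mt-Nd4. mt-Nd1 had 2235, 2973 and 4763 CPM in TDM, 3080, 3958 and 5963 CPM in Vehicle, and 2763, 3340 and 4498 CPM in Blank skin. mt-Nd2 had 1129, 1504 and 2385 CPM in TDM, 1498, 2084 and 2915 CPM in Vehicle, and 1485, 1787 and 2404 CPM in Blank skin. The order of the medians was TDM, Blank, Vehicle for both, with overlap between all groups. mt-Nd4 had 1255, 1655 and 2963 CPM in TDM, 1746, 2616 and 3801 CPM in Vehicle, and 1764, 2147 and 3022 CPM in Blank skin. mt-Nd5 had 1624, 2121 and 2588 CPM in TDM, 1724, 2426 and 3324 CPM in Vehicle, and 1953, 2139 and 2624 CPM in Blank skin, so that its TDM and Blank medians lay close together. Of the small subunits with chromosome 1 copies, mt-Nd3 had 3.42, 4.62 and 8.34 CPM in TDM, 5.72, 7.30 and 10.8 CPM in Vehicle, and 4.44, 5.45 and 7.82 CPM in Blank skin. mt-Nd4l had 5.96, 6.78 and 13.7 CPM in TDM, 4.39, 7.56 and 10.9 CPM in Vehicle, and 5.31, 7.07 and 10.02 CPM in Blank skin, and its highest library was a TDM library. mt-Nd6, transcribed from the other strand, had 409.7, 529.9 and 882 CPM in TDM, 535, 705 and 1013 CPM in Vehicle, and 496, 606 and 899 CPM in Blank skin. Its log2 fold change was -0.32 in TDM versus Vehicle (SE 0.15, adjusted p = 0.115, edgeR), -0.07 in TDM versus Blank (SE 0.15, adjusted p = 0.79, edgeR) and 0.25 in Vehicle versus Blank (SE 0.15, adjusted p = 0.279, edgeR). mt-Nd6 made up a median of 2.33% of mitochondrial reads in TDM, 2.25% in Vehicle and 2.28% in Blank skin, medians that differed by less than the SD between libraries of any of the 3 groups. mt-Nd6 passed the test in TDM versus Vehicle without TDM replicate 5 (adjusted p = 0.0411, edgeR) and with limma voom.

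The subunit of complex III, mt-Cytb, had 3058, 3837 and 6923 CPM in TDM, 4197, 5493 and 7844 CPM in Vehicle, and 3905, 4634 and 6157 CPM in Blank skin. Of the ATP synthase subunits, mt-Atp6 had 40.6, 53.2 and 91.4 CPM in TDM, 49.7, 67.6 and 207 CPM in Vehicle, and 41.9, 55.7 and 78.5 CPM in Blank skin. mt-Atp8 had 0.549, 1.41 and 4.51 CPM in TDM, 0.202, 1.099 and 3.55 CPM in Vehicle, and 0.599, 1.52 and 2.29 CPM in Blank skin. None of the 3 was called by edgeR in a comparison, limma voom called mt-Cytb and mt-Atp6 lower in TDM against Vehicle skin, and mt-Atp8, with 3 to 73 reads a library, was measured with little precision.

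**Figure D4:**
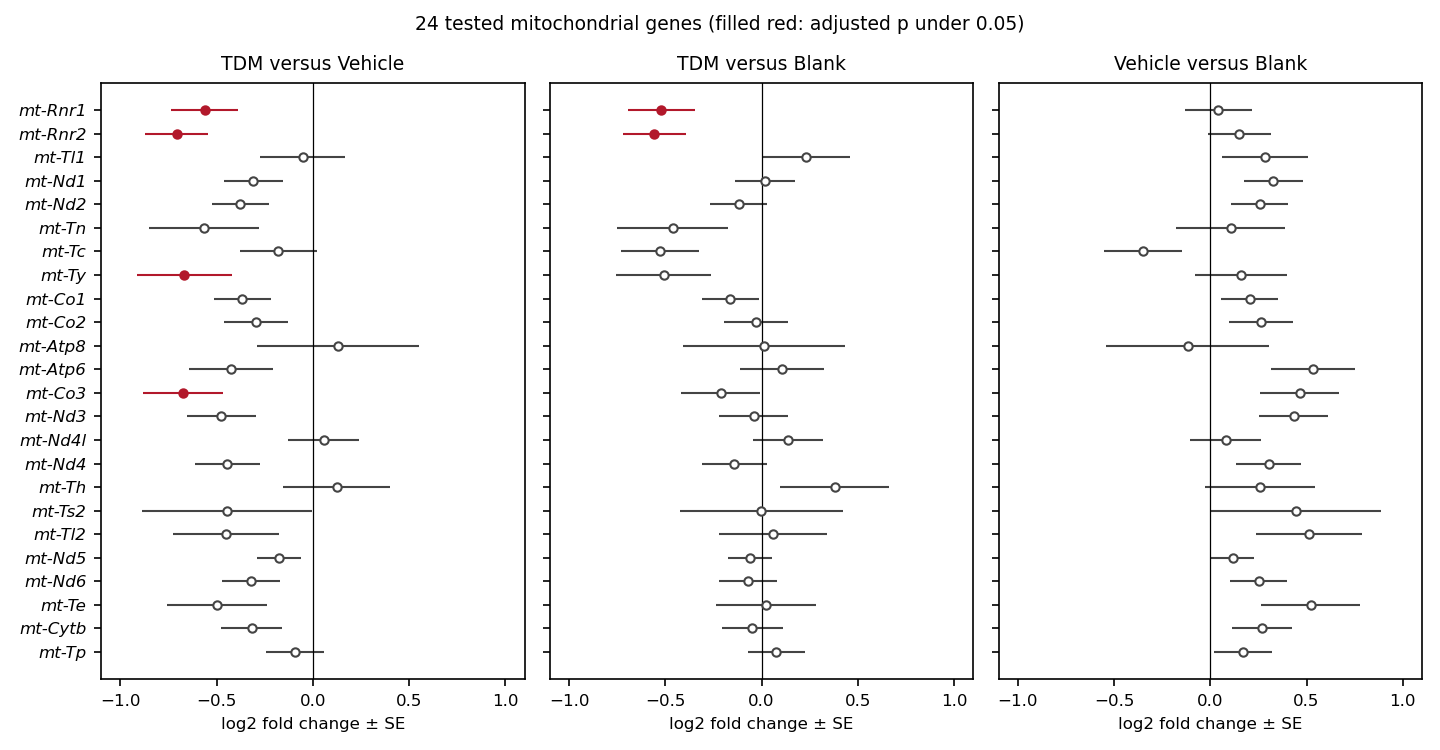
Log2 fold change with its SE for the 24 tested mitochondrial genes in genome order, for TDM versus Vehicle, TDM versus Blank and Vehicle versus Blank (edgeR); filled red points had an adjusted p under 0.05. mt-Rnr1 and mt-Rnr2 are red in both TDM comparisons, mt-Co3 and mt-Ty in TDM versus Vehicle, and no point is red in Vehicle versus Blank.

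The tRNA reads were few and unevenly spread over the genes. Of the 22 genes, mt-Tf and mt-Tr had no read and the other 20 had some, and 9 genes had fewer than 27 reads over the 27 libraries. The 8 tRNA genes of the minus strand held 91.9% of the tRNA reads, 20759 reads, and the 14 of the plus strand 8.13%, 1837 reads. mt-Tp led with 10286 reads and mt-Tc followed with 7472. No annotated gene lies after mt-Tp on the reference, and mt-Tc has 32 free bases beside it, where the neighbour mt-Tn, on the other side of those bases, had 1347 reads. mt-Te had 960 reads, mt-Ty 596, mt-Tl2 468, mt-Tl1 454, mt-Ts2 341 and mt-Th 292. Whether these reads come from mature tRNAs or from longer precursors was not tested.

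The tRNA genes with the most reads had overlapping levels in the 3 groups. mt-Tp had 15.9, 19.5 and 33.8 CPM in TDM, 20.2, 23.0 and 29.3 CPM in Vehicle, and 14.7, 21.7 and 30.2 CPM in Blank skin. mt-Tc had 9.76, 12.5 and 23.4 CPM in TDM, 8.23, 15.9 and 26.95 CPM in Vehicle, and 12.2, 18.2 and 33.5 CPM in Blank skin. mt-Tn had 1.35, 2.45 and 3.35 CPM in TDM, 1.32, 3.77 and 5.29 CPM in Vehicle, and 1.33, 3.18 and 7.22 CPM in Blank skin. Neither these 3 genes nor mt-Te, mt-Tl1, mt-Tl2, mt-Th and mt-Ts2 were called by edgeR. With limma voom mt-Tp, mt-Te and mt-Ts2 were called lower in TDM against Vehicle skin and mt-Tc in TDM against Blank skin, the last with DESeq2 too. mt-Te had 1.1, 1.47 and 4.20 CPM in TDM, 1.26, 2.55 and 4.51 CPM in Vehicle, and 1.04, 1.86 and 2.61 CPM in Blank skin. mt-Tl1 had 0.578, 1.02 and 1.55 CPM in TDM, 0.781, 1.099 and 1.44 CPM in Vehicle, and 0.376, 0.705 and 1.41 CPM in Blank skin. mt-Tl2, the other leucine tRNA, had 0.226, 0.964 and 1.67 CPM in TDM, 0.792, 1.25 and 1.99 CPM in Vehicle, and 0.528, 0.857 and 1.44 CPM in Blank skin. All 3 overlapped between the groups. mt-Th had 0.284, 0.741 and 1.15 CPM in TDM, 0.180, 0.609 and 1.02 CPM in Vehicle, and 0.294, 0.577 and 1.003 CPM in Blank skin. mt-Ts2 had 0.0579, 0.395 and 2.47 CPM in TDM, 0.313, 1.02 and 1.62 CPM in Vehicle, and 0.359, 0.549 and 1.5 CPM in Blank skin. These 5 genes had medians of 9 to 33 reads a library, where counting error alone is large. The same limit holds for mt-Ty, with a median of 21 and 9 to 39 reads a library. mt-Ty had 0.511, 0.925 and 1.53 CPM in TDM, 0.601, 1.55 and 2.68 CPM in Vehicle, and 0.821, 1.497 and 2.1 CPM in Blank skin. It fell in TDM against Vehicle skin by 0.67 on the log2 scale (SE 0.25, adjusted p = 0.0483, edgeR), in 9 of 9 TDM libraries relative to the Vehicle median. Its log2 fold change was -0.51 against Blank (SE 0.25, adjusted p = 0.165, edgeR) and 0.16 between Vehicle and Blank (SE 0.24, adjusted p = 0.692, edgeR). The mt-Ty call was lost in 5 of 15 other settings and, when each library was omitted in turn, in 16 of 27 fits.

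TDM was also compared with Blank, and Vehicle with Blank; these comparisons share libraries with the first and are not independent of it. Against Blank, mt-Rnr1 and mt-Rnr2 were the only genes of the 24 that edgeR called, both lower in TDM skin, where 16.2% of all genes tested were called, 11.6% higher and 4.63% lower. With limma voom 6 of the 24 were called, all lower, where it called 13.7% of all genes tested as lower. The 13 protein-coding genes had log2 fold changes from -0.21 to 0.14 with a median of -0.05, and 9 of 13 were below 0. The 9 tRNA genes ran from -0.53 to 0.38 with a median of 0.02. Between Vehicle and Blank edgeR called no gene of the 24, where 2.76% of all genes tested were called, 0.894% higher and 1.86% lower, and 4 passed an unadjusted p under 0.05. Of the 24, 22 had a log2 fold change above 0, with a median of 0.26 against 0.02 over all genes tested. These 22 include 12 of the 13 protein-coding genes and both rRNAs.

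Nuclear genes that serve mitochondrial RNA showed few calls and in both directions. Of all genes tested, 12% were called higher and 11.7% lower in TDM against Vehicle skin. Of 18 genes of mitochondrial transcription, 1 fell in TDM against Vehicle skin and none rose: Top1mt, the mitochondrial topoisomerase, with a log2 fold change of -0.34 (adjusted p = 0.0416, edgeR), a call lost in 4 of 15 other settings and in 10 of 27 fits with 1 library left out. Polrmt, the mitochondrial RNA polymerase, had 32.2, 34.6 and 44.9 CPM in TDM, 29.2, 35.4 and 43.0 CPM in Vehicle, and 28.7, 33.2 and 36.7 CPM in Blank skin (TDM versus Vehicle 0.07, adjusted p = 0.545, edgeR). Tfam, which packages the genome and starts transcription, had 29.2, 36.8 and 46.9 CPM in TDM, 37.4, 39.8 and 54.7 CPM in Vehicle, and 33.7, 36.0 and 45.0 CPM in Blank skin (-0.19, adjusted p = 0.132, edgeR; 0.0312 with limma voom). Both overlapped between all groups. Of 40 tested genes of mitochondrial RNA processing, stability and modification, 2 rose and 2 fell. Pde12, an enzyme that shortens poly(A) tails in mitochondria, rose by 0.39 (adjusted p = 0.0165, edgeR) and Nsun2, an RNA methyltransferase, by 0.28 (adjusted p = 0.0124, edgeR). Fastk and Fastkd1, RNA-binding proteins of mitochondria of which the first is needed for mt-Nd6 mRNA, fell by 0.37 (adjusted p = 0.0268, edgeR; 0.0547 without TDM replicate 1 and 0.0516 without TDM replicate 9) and 0.38 (adjusted p = 0.0106, edgeR). Lrpprc, which stabilises mitochondrial mRNAs, had a log2 fold change of -0.12 (adjusted p = 0.237, edgeR). The medians of both lists were -0.17 and -0.04. In TDM versus Blank, 6 genes of the second list rose and none fell, where 11.6% of all genes tested were called higher and 4.63% lower.

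Of 13 regulators of mitochondrial biogenesis, 3 rose and 1 fell in TDM against Vehicle skin, with a median of -0.05, where 12% of all genes tested were called higher and 11.7% lower. Nrf1 and Gabpa, activators of nuclear genes for mitochondrial proteins, rose by 0.24 (adjusted p = 0.0238, edgeR; 0.0508 without TDM replicate 5, 0.0612 without Vehicle replicate 3 and 0.0688 without a filter on low counts) and 0.14 (adjusted p = 0.0453, edgeR, lost in 6 of 15 other settings and in 19 of 27 fits with 1 library left out), and the nuclear receptor Ppard rose by 0.20 (adjusted p = 0.0118, edgeR; 0.0643 without a filter on low counts). Esrra, an orphan nuclear receptor that works with the coactivator Ppargc1a, fell by 0.39 (adjusted p = 0.0044, edgeR). Ppargc1a had 11.9, 24.3 and 44.8 CPM in TDM, 14.2, 39.4 and 63.3 CPM in Vehicle, and 9.70, 26.1 and 52.1 CPM in Blank skin, a spread of several-fold within each group (TDM versus Vehicle -0.53, adjusted p = 0.181, edgeR; -0.77 and 0.0305 with limma voom).

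The nuclear partners of the mitochondrial subunits were read from the same fit, and whether they and the mitochondrial genes differed in their changes was not tested. In TDM versus Vehicle, 19 of 36 complex I subunits fell, as did 7 of 9 of complex III, 9 of 17 of complex IV and 7 of 16 of complex V, and 1, the complex IV subunit Cox6a1, rose by 0.35 (adjusted p = 0.0142, edgeR). Of all genes tested, 11.7% were called lower and 12% higher. The medians of the 4 lists were -0.32, -0.36, -0.33 and -0.33, and that of the 13 mitochondrial protein-coding genes, of which 1 was called, was -0.32. Ndufa13 of complex I fell by 0.41 (adjusted p = 0.0102, edgeR), Uqcrfs1, the iron-sulfur protein of complex III, by 0.48 (adjusted p = 0.0143, edgeR), and Atp5e of complex V by 0.45 (adjusted p = 0.013, edgeR). Cox6a2, the isoform of heart and skeletal muscle, fell by 1.015 (adjusted p = 0.00506, edgeR). In TDM versus Blank the medians of the 4 lists lay between -0.02 and 0.00. Of 10 tested pseudogenes listed as nuclear copies of mitochondrial DNA, 3 fell in TDM against Vehicle skin: Gm28438 by 0.64 (adjusted p = 0.0181, edgeR), Gm28437 by 0.52 (adjusted p = 0.0379, edgeR; lost in 9 of 27 fits with a library omitted) and Gm10221 by 0.52 (adjusted p = 0.00749, edgeR). When the counts of 7 mitochondrial genes were summed with those of their chromosome 1 copies, 5 mitochondrial genes were called lower, mt-Nd3 joining the 4, in a fit chosen after seeing the data. That fit called 11.7% of all genes tested as lower.

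Levels of skeletal muscle genes were set beside the mitochondrial share. The summed level of 20 skeletal muscle genes was 19830, 29730 and 50680 CPM in TDM, 28100, 55830 and 89740 CPM in Vehicle, and 29800, 47540 and 65920 CPM in Blank skin, with Myh7 at 0 in all Blank libraries. Of the 18 tested, 15 fell in TDM against Vehicle skin and 2 in TDM against Blank skin, where 11.7% and 4.63% of all genes tested were called lower. Acta1, muscle actin, fell by 1.02 (adjusted p = 0.00527, edgeR), Ckm, muscle creatine kinase, by 0.91 (adjusted p = 0.00576, edgeR), and Mb, myoglobin, by 0.69 (adjusted p = 0.0457, edgeR; lost in 15 of 27 fits with 1 library left out). In TDM skin the 3 libraries with the highest mitochondrial share, replicates 7, 5 and 3, ranked 1, 4 and 2 for muscle genes. In Vehicle skin replicate 3 ranked 1 for both and replicate 7 ranked 9 for both. The Pearson correlation of share and muscle sum, given as a description over libraries that share tissue and normalization, was 0.79 in TDM, 0.877 in Vehicle and 0.311 in Blank skin (n = 9 each). Muscle was not the only marker list to follow the share. Over all 27 libraries the correlation was 0.759 for muscle, -0.842 for fibroblast and 0.75 for brown adipocyte genes. In TDM skin it was 0.973 for brown adipocyte, -0.966 for fibroblast, -0.93 for immune cell and 0.856 for dividing-cell genes. Endothelium, sebocyte and keratinocyte genes had -0.85, 0.577 and -0.202 there. In Vehicle skin the muscle correlation was the strongest of the lists, and that of dividing-cell genes was -0.379. In Blank skin muscle, at 0.311, was weaker than brown adipocyte (0.54), dividing-cell (-0.486), adipocyte (0.479) and fibroblast genes (-0.367). The brown adipocyte list includes the complex IV subunits Cox8b and Cox7a1, so its sum partly measures respiratory chain genes. Cox8b and Cox7a1 had medians of 58.6 and 23.1 CPM in TDM skin, beside a median list sum of 187 CPM. In Vehicle skin their medians were 117 and 48.9 CPM, beside a median list sum of 434 CPM. The part of muscle content in the mitochondrial differences was not tested.

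**Figure D5:**
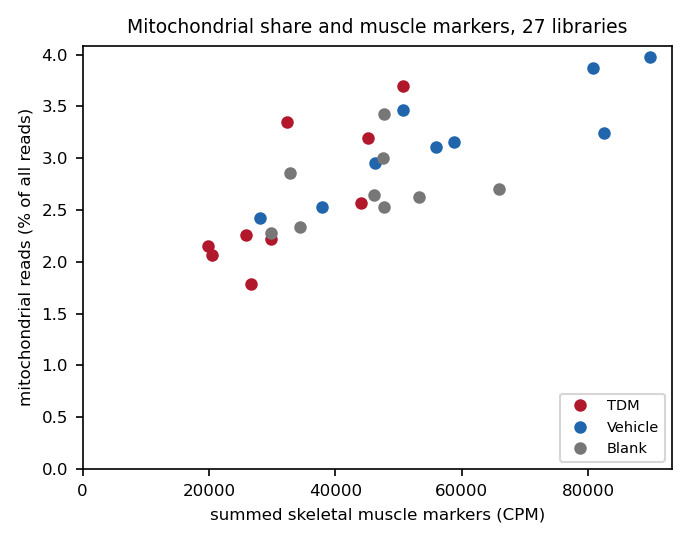
Share of reads in the 37 mitochondrial genes (%) against the summed level of 20 skeletal muscle genes (CPM), 1 point per library, 9 each of TDM, Vehicle and Blank. TDM and Vehicle libraries with more muscle RNA tend to have a higher share, up to Vehicle replicate 3 at 3.98%, and Blank libraries follow this less, with correlations of 0.79, 0.877 and 0.311. In TDM skin, brown adipocyte and fibroblast genes, not plotted, had stronger correlations of 0.973 and -0.966. The brown adipocyte list includes the complex IV subunits Cox8b and Cox7a1.

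Markers of other cell types were read in the same way. Their calls stand beside 12% of all genes tested called higher and 11.7% lower in TDM against Vehicle skin. Against Blank skin these shares were 11.6% and 4.63%. The 10 fibroblast genes summed to 6635, 37580 and 52640 CPM in TDM, 3776, 16380 and 33460 CPM in Vehicle, and 18100, 27690 and 37980 CPM in Blank skin, and 7 of 10 rose in TDM against Vehicle skin. Col1a1, a fibrillar collagen, rose by 1.098 (adjusted p = 0.0498, edgeR), a call lost in 7 of 15 other settings and in 21 of 27 fits with 1 library left out. The 12 keratinocyte genes summed to 6239, 9021 and 10050 CPM in TDM, 6927, 9571 and 16960 CPM in Vehicle, and 7450, 10970 and 12050 CPM in Blank skin, and 5 of 12 fell in TDM against Vehicle skin, among them Krt14, a basal keratin, by 0.71 (adjusted p = 0.00705, edgeR). The 8 brown adipocyte genes, of which Cox8b and Cox7a1 also stand in the complex IV list, summed to 146, 187 and 346 CPM in TDM, 190.6, 434 and 483 CPM in Vehicle, and 209.6, 324 and 383 CPM in Blank skin, while Ucp1, their defining gene, had a median of 0 CPM in TDM and Vehicle libraries, at most 0.227 CPM in any library, and was not tested. Of the 7 brown adipocyte genes tested, 3 fell and 1 rose in TDM against Vehicle skin. In TDM against Blank skin 1 fell and 1 rose. The 10 dividing-cell genes summed to 577, 916 and 1201 CPM in TDM, 290, 369 and 994 CPM in Vehicle, and 242, 290 and 563 CPM in Blank skin. Of these dividing-cell genes, 9 rose and none fell in TDM against Vehicle skin, and all 10 rose in TDM against Blank skin. Vehicle replicates 7 and 8 had 791 and 994 CPM of these, above the other 7 Vehicle libraries, and without both 7 of the 24 mitochondrial genes were called lower in TDM against Vehicle skin. In that fit 14.9% of all genes tested were called lower, against 11.7% with all libraries. The 10 sebocyte genes summed to 1871, 2406 and 3529 CPM in TDM, 2018, 3180 and 5408 CPM in Vehicle, and 2213, 3972 and 4955 CPM in Blank skin, and 4 fell and 1 rose in TDM against Vehicle skin and 5 fell in TDM against Blank skin. The 10 adipocyte genes summed to 6830, 8128 and 11570 CPM in TDM, 5952, 11140 and 15280 CPM in Vehicle, and 8619, 10540 and 17230 CPM in Blank skin, and 1 of 10 fell against both. This gene, named after its values were seen, was Car3, a carbonic anhydrase, which had medians of 3383 CPM in TDM, 6270 in Vehicle and 5080 in Blank skin and log2 fold changes of -0.76 against Vehicle (adjusted p = 0.0046, edgeR) and -0.63 against Blank (adjusted p = 0.0132, edgeR). Adipoq, another of them, had an adjusted p of 0.58 (edgeR) against Vehicle. The 12 immune cell genes summed to 322, 1314 and 1626 CPM in TDM, 378, 1207 and 1447 CPM in Vehicle, and 1201, 1461 and 1885 CPM in Blank skin. The lowest of these in TDM skin was replicate 7 and the lowest in Vehicle skin replicate 3, each the library of its group with the highest mitochondrial share. Of the 10 tested immune cell genes none was called in TDM against Vehicle skin and 1 fell in TDM against Blank skin. The 7 erythrocyte genes summed to 462, 805 and 1442 CPM in TDM, 227.5, 971 and 2694 CPM in Vehicle, and 394, 616 and 1313 CPM in Blank skin. The 8 endothelium genes summed to 356, 535 and 599 CPM in TDM, 174, 428 and 631 CPM in Vehicle, and 536, 595 and 714 CPM in Blank skin. Of the 5 tested erythrocyte genes and the 8 endothelium genes, edgeR called none. The part of these cell types in the mitochondrial differences was not tested either.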

How the data were processed

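RNA of 27 dorsal skin libraries was measured by RNA sequencing. The Illumina TruSeq RNA kit was used for library construction per the labels' protocols, in a text that speaks of retinas although the tissue is labelled dorsal skin. Bowtie 0.12.2 and the mm9 build are named per the submitters' processing notes. The authors deposited whole-number read counts per gene and, from them, FPKM; the same deposited table gives the authors' own log2 fold changes and p-values, of which the report prints 2 fold changes and 2 adjusted p-values. The counter, its handling of strand and of reads matching several places, and the tool behind the authors' comparisons are not given in the sources used here. Of 54409 IDs also in GENCODE M21 (GRCm38), 98.33% have the same coordinates there, the 37 mitochondrial genes and 7 copies among them.

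Groups were taken from the labels. The members, gene lists, tests and rule for named genes were chosen with earlier results of these data known. filterByExpr (minimum count 10, minimum total 15) kept 17232 genes with 99.86% of reads. With TMM factors, one model of all 27 libraries was fitted in edgeR 4.0.16 (robust glmQLFit, then glmQLFTest; R 4.3.3), with p-values adjusted after Benjamini-Hochberg over all 17232 genes; the 3 comparisons used no batch, since the labels give none. Every adjusted p in the report is from this test unless another fit or the authors' table is named beside it. Shares, FPKM and marker sums were described without a test. Full statistics were given for members called in any comparison and for mt-Nd6, mt-Rnr1 and mt-Rnr2; nuclear genes named were those with the smallest p among called genes, up to 4 a list, and a few fixed names. Shared sequence was found by matching 50-base windows of GENCODE M21 transcripts. Alternatives used DESeq2 1.42.0, limma 3.58.1 (voom, and log2 FPKM with a pseudocount of 1 or 0.1), other scalings, filters and sample sets, and the replicate number as a block. The fits were tested on simulated counts. The closest libraries of a group differed by a chi-square per degree of freedom of 8.67 over 108 pairs, so none was counted as a duplicate.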

Additional observations from a re-analysis of the deposited data

Results flagged for a closer look

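Of 84 groups of 9 libraries, 9 held a library set apart from its group by more than Dixon's 95% critical value for 9 samples. The rate of about 1 in 20 by chance holds only for independent, normally distributed values. These groups reuse the same 27 libraries and include genes with few reads, so 9 of 84 cannot be read against that rate. In each case the library set apart was the highest. mt-Ts2, mt-Tc and mt-Atp8 were highest in TDM replicate 3, at 2.47, 23.4 and 4.51 CPM, where the next library of the group had 1.09, 16.3 and 1.85 CPM. mt-Te stood at 4.20 CPM in TDM replicate 7, with 2.25 CPM next. mt-Atp6 stood at 207 CPM in Vehicle replicate 3, with 80.5 CPM next, and mt-Co3 at 148 CPM in Vehicle replicate 9, with 93.9 CPM next. In Blank skin, replicate 5 was highest for mt-Nd4, at 3020 CPM with 2350 CPM next, and for mt-Co3, at 88.4 CPM with 57.4 CPM next, and replicate 2 was highest for mt-Tn, at 7.22 CPM with 4 CPM next.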

How the results depend on the processing

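The mean share of reads in the mitochondrial genome stayed within 1 SD under 3 other denominators in each group. The genes taken out of these denominators held too few reads to move the mean by 1 SD, so this outcome was fixed in advance. With each library left out the mean lay between 2.45% and 2.69% in TDM, 3.09% and 3.29% in Vehicle, and 2.62% and 2.77% in Blank skin. mt-Rnr2 was called lower in TDM skin in every alternative run, against Vehicle and against Blank. mt-Rnr1 was called against Vehicle in all of them, and against Blank in 12 of 13 settings and 19 of 27 fits with 1 library left out. None of these fits bears on how far library preparation retained rRNA. Of the 24 genes, 4 were called in TDM versus Vehicle, 8 by DESeq2, 17 by limma voom with sample quality weights, and 7 each with RLE size factors, with limma on log2(FPKM + 1) or log2(FPKM + 0.1), and without Vehicle replicates 7 and 8, all of them lower in TDM skin. In the same order, these fits called 11.7%, 14.6%, 19.3%, 13.2%, 12.3%, 12.1% and 14.9% of all genes tested as lower. With 1 library left out the count ran from 2 (without Vehicle replicate 9) to 10 (without TDM replicate 7). It was 7 without TDM replicate 3, 9 without TDM replicate 5, and 8 without Vehicle replicate 6 or 7 or Blank replicate 1, 3 or 5. Over these 27 fits 8.66% to 15.3% of all genes tested were called lower, 11.4% without Vehicle replicate 9 and 13.9% without TDM replicate 7. In TDM versus Blank, 2 were called, 6 by limma voom, 1 without a filter on low counts, and 1 to 3 with 1 library left out. The same fits called 4.63%, 13.7%, 1.75% and 3.37% to 6.16% of all genes tested as lower. In Vehicle versus Blank 0 were called by any tool or setting, and 0 with any 1 library left out. Several of these fits called nothing in the whole table: 0 genes without Vehicle replicate 1, 3, 6 or 8 or Blank replicate 4, 6 or 9. Without a filter on low counts 2 of 34892 genes were called. Such fits cannot show whether the mitochondrial genes differed. The mt-Rnr1 difference between Vehicle and Blank ran from -0.01 to 0.14 with 1 library left out, with values of 0.00, 0.00 and -0.01 without Blank replicates 7, 8 and 9. Adipoq turned to 0.00 with the replicate block and to 0.33 and 0.35 with limma on log2(FPKM + 1) and log2(FPKM + 0.1). Hbb-bs turned to 0.21 without Vehicle replicates 7 and 8, to 0.02 without 3, 7 and 8, and ran from -0.39 to 0.07 with 1 library left out. The causes were not tested. Whether same-numbered libraries belong together was not clear, with correlations of their deviations from -0.399 to 0.382 over the 3 comparisons. The same-numbered library was the best match for 1 of 9 libraries in TDM versus Vehicle. It was so for 3 of 9 in TDM versus Blank and 3 of 9 in Vehicle versus Blank. With the replicate block, 6, 2 and 0 of the 24 genes were called in TDM versus Vehicle, TDM versus Blank and Vehicle versus Blank, where 22.9%, 15.2% and 3.47% of all genes tested were called in either direction. tRNA genes with fewer than 27 reads over all libraries could not be compared at this depth.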
